A study of Mus musculus with 8 samples.

Results

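Interferon signaling in sorted colonic myeloid cells was followed through 10 genes among the 16889 genes of the deposited UMI (unique molecular identifier) table. They encode the ligands interferon-β (Ifnb1) and interferon-γ (Ifng), the type I receptor chains (Ifnar1, Ifnar2), the interferon-γ receptor chains (Ifngr1, Ifngr2), the Janus kinases Jak1 and Tyk2, and the feedback inhibitors Socs1 and Socs3. They were chosen by their known roles in the pathway, and all 10 genes had a row in the table. CD11b+ cells that carried CCR2 or CD64 were sorted from the colonic lamina propria of 4 control mice (replicates 1 to 4, corn oil) and 4 cKO mice (replicates 5 to 8, tamoxifen). All mice were female CD98hcΔCX3CR1 littermates between 6 and 12 weeks old, so control mice carried the same floxed CD98hc alleles, tamoxifen-dependent Cx3cr1CreER and YFP reporter. The labels give 100 µl of tamoxifen at 20 mg/ml on 5 consecutive days, with cells taken 7 days after the first injection. Tamoxifen was given to cKO mice alone, so the agent and the deletion cannot be told apart, and the Cre acts where Cx3cr1 is or was active, not in every sorted cell.

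Type I interferons bind IFNAR1 and IFNAR2, whose cytoplasmic tails hold TYK2 and JAK1, and the kinases activate STAT transcription factors, which enter the nucleus with IRF9. Interferon-γ binds IFNGR1, whose partner IFNGR2 completes the signaling complex, and JAK1 and JAK2 then pass the signal on. SOCS1 and SOCS3 are induced by cytokine signaling and restrain receptors and kinases of this family. In the gut, interferon-γ comes mainly from T cells, natural killer (NK) cells and group 1 innate lymphoid cells, while monocytes and macrophages are among the cells that respond to it.

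Filters on depth, detected genes, mitochondrial and hemoglobin transcripts left 3213 of 5947 barcodes, 1863 from control and 1350 from cKO mice. A mouse contributed 83 to 724 cells and 497531 to 3762314 UMIs, and control replicate 3 and cKO replicate 5 contributed 85 and 83 cells. Of the cell barcode sequences, 25 occurred in more than 1 library, 8 of them among kept cells. A doublet caller marked 24 of the 83 cells of cKO replicate 5. The deposited counts are of 3′ transcript ends, so they do not show whether the floxed part of CD98hc was excised, and the group names are those of the labels. Levels are given in CPM, where the UMIs of a gene in a set of cells are divided by all UMIs of these cells and scaled to a common total. A 3′ kit counts molecules rather than fragments, but capture differs between transcripts, so levels were compared between mice and cell groups and not between genes.

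On GRCm38, the assembly behind mm10, 3 of the 4 receptor chain genes lie side by side on chromosome 16. Ifnar2 (ENSMUSG00000022971) spans chr16:91372783-91405589, Ifnar1 (ENSMUSG00000022967) chr16:91485238-91507441 and Ifngr2 (ENSMUSG00000022965) chr16:91547072-91565623, all on the plus strand. Il10rb, a chain of the interleukin-10 and interferon-λ receptors, sits between Ifnar2 and Ifnar1 at chr16:91406164-91425834. Ifngr1 (ENSMUSG00000020009) lies apart at chr10:19591949-19610229 on the plus strand. Jak1 is at chr4:101152367-101265282 and Tyk2 at chr9:21104068-21131243, both on the minus strand, and Socs1 (chr16:10782240-10785536) and Socs3 (chr11:117966079-117970047) are also on the minus strand. Ifnb1 is at chr4:88522025-88522774 on the minus strand and Ifng at chr10:118441046-118445892 on the plus strand. The annotated gene Gm21970 overlaps Ifnar2 on the same strand, the pseudogene Gm12785 overlaps Jak1 on the same strand, Gm49751 overlaps Ifng on the same strand, and an antisense transcript overlaps Tyk2, so these counts are less certain where reads could be shared.

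Promoters are shown for the 4 members whose levels carry the results below, as the 250 bases before the RefSeq start site on GRCm38.p6, written 5′ to 3′ on the strand of the gene. For the feedback genes, capitals mark matches on either strand to the interferon-γ activated sequence (GAS, TTCNNNGAA) or the interferon-stimulated response element (ISRE, GAAANNGAAA or its reverse complement TTTCNNTTTC).
Socs1 (chr16:10785537-10785786, minus strand): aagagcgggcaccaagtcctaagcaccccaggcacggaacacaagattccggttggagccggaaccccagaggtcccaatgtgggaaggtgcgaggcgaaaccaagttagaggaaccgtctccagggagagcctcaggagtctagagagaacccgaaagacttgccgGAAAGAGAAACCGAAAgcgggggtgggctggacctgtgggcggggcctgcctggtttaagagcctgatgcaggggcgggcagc
Socs3 (chr11:117969367-117969616, minus strand): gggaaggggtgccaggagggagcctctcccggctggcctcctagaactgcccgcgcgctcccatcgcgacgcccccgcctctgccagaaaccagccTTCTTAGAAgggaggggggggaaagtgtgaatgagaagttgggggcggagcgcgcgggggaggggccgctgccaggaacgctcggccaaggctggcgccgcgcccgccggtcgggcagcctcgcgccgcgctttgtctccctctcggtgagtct
The Socs1 window held 2 overlapping ISRE matches, whose first bases lie 83 and 77 bases before the start, and no GAS match. The Socs3 window held 1 GAS match, 154 bases before the start, and no ISRE match. A GAS match occurred in 7.02% and an ISRE match in 2.98% of 32851 RefSeq promoter windows of the same length.

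For the interferon-γ receptor chains, whose levels separated the mice in opposite directions, capitals mark GC boxes (GGGCGG or CCGCCC), a motif common in promoters that are active in most cells.
Ifngr1 (chr10:19591699-19591948, plus strand): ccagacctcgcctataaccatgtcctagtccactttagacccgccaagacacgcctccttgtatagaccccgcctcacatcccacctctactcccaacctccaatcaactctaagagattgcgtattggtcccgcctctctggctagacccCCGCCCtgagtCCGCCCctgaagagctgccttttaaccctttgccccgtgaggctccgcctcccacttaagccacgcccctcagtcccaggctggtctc
Ifngr2 (chr16:91546809-91547058, plus strand): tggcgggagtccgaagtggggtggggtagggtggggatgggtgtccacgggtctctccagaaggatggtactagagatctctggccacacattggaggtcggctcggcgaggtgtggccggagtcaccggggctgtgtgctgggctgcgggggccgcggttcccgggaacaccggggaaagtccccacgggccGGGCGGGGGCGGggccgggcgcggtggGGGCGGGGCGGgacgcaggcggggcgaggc
The Ifngr1 window held 2 GC boxes, 99 and 88 bases before the start, and the Ifngr2 window held 4 GC boxes, at 57, 51, 30 and 25 bases before the start. Some of the latter overlap each other. Neither window held a GAS or ISRE match, and 32.7% of all windows held a GC box. Elsewhere in the list, GAS matches occurred in the windows of Ifng (249 bases before the start) and Ifnar2 (214 bases before the start), and those of Ifnb1, Ifnar1, Jak1 and Tyk2 had neither a GAS nor an ISRE match. A match is a match of letters and shows no binding.

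Kept cells were clustered with the members and the pathway genes left out, which gave 9 clusters, and clusters were named from fixed markers where the leading genes allowed it. These were monocyte-like (594 cells, led by Chil3 and Ly6c2), macrophage-like (408 cells, led by Fcrls, Pf4 and C1qc), dendritic cell-like (517 cells, led by Cd209a, Xcr1 and Flt3), lymphoid-like (179 cells, led by Jchain, Mzb1 and Gzmb) and stromal-like cells (86 cells, led by Dcn and Col3a1). The other 4 clusters kept the names of their leading genes, as Ccr2/Dusp6/Ly86 (456 cells), Ccl24/Arg1/Saa3 (386 cells), Cebpb/Jund/Ier5 (329 cells) and Ccl8/Cela1/Pf4 cells (258 cells). Median depth was lowest in the Ccl8/Cela1/Pf4 cells, at 1163.5 UMIs per cell, and highest in the dendritic cell-like cells, at 9258 UMIs per cell.

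Ifng was detected almost entirely in lymphoid-like cells. Of its 29 UMIs in 10 cells, 28 UMIs were in 9 of the 179 lymphoid-like cells, a share of 5.03% (95% Wilson interval 2.67 to 9.28%). The remaining UMI was in a monocyte-like cell, 1 of 3034 cells outside the lymphoid-like cluster (0.0330%), although these were deeper, with a median of 5040.5 against 3550 UMIs per cell. That share rests on 1 UMI, and its source was not tested. The interval of the lymphoid-like share counts cells of all mice together. By mouse, the lymphoid-like share ran from 0 to 10.7% in 3 control and from 0 to 6.90% in 3 cKO mice.

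Within the lymphoid-like cluster, 8 of the 9 Ifng cells had a UMI of an NK or group 1 innate lymphoid marker (Ncr1, Klrb1c, Klrd1, Nkg7, Gzma, Gzmb or Klre1), and 6 had a UMI of a T cell marker. Both kinds of marker were found in 5 of them, with 23 Ifng UMIs. An NK marker UMI without a T cell marker UMI was found in 3, with 4 Ifng UMIs. The share with Ifng was 9.30% among the 86 lymphoid-like cells with such an NK marker UMI. Among the 67 with a T cell marker UMI, of which 46 also had an NK marker UMI, the share was 8.96%. It was 0 of the 72 lymphoid-like cells with neither, which allows a share of up to 4.17%. Jchain and Mzb1, markers of plasma cells, led the cluster as a whole. These cells had passed a sort for CD11b and for CCR2 or CD64, so they give the lymphoid cells in the sort and not those of the tissue.

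Per mouse, the share of cells with an Ifng UMI was 0.138, 0.594, 1.18 and 0% in control replicates 1 to 4 and 0, 0.573, 0 and 0.691% in cKO replicates 5 to 8. Each group held at least 1 mouse with no such cell, and the groups overlapped. The means of 0.477% and 0.316% differed by -0.161 percentage points, less than the spread between mice (two-sided exact permutation p = 0.571, smallest possible 0.0286). Among lymphoid-like cells, the means were 4.85% in 3 control and 4.26% in 3 cKO mice (exact permutation p = 1, smallest possible 0.1). Lymphoid-like cells were 2.35 to 5.83% of the cells of a control mouse and 4.82 to 8.31% of those of a cKO mouse.

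Ifnb1, the interferon that myeloid cells make after sensing nucleic acids or bacterial products, was near the limit of detection. It had 10 UMIs in 6 cells, with 1 or 2 UMIs in each. Of these cells 2 were monocyte-like and 1 each was dendritic cell-like, macrophage-like, Ccl24/Arg1/Saa3 and Ccl8/Cela1/Pf4, and none of the 179 lymphoid-like cells had a UMI, which allows a share of up to 1.68%. No Ifnb1 cell had a UMI of Siglech, Ccr9 or Ly6d, markers of plasmacytoid dendritic cells, and 2 had a UMI of Tcf4. The cell in the dendritic cell-like cluster had 0 dendritic cell, 37 macrophage and 3 monocyte marker UMIs, so its own markers went against the name of its cluster. Siglech itself had 23 UMIs in 22 cells.

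By mouse, Ifnb1 cells were 0, 1, 0 and 0 in the control replicates and 0, 1, 2 and 2 in the cKO replicates, so 3 of 4 cKO mice and 1 of 4 control mice had any. The shares of 0.0495% and 0.290% did not differ beyond the spread between mice (exact permutation p = 0.143). Other interferons were all but undetected: of 19 further ligand genes (interferon-α genes, Ifnab, Ifne, Ifnk, Ifnz, Ifnl2 and Ifnl3), 18 had no row in the table and were not detected in it, and Ifnz had 1 UMI in 1 cell. The table says nothing of cells outside the sort.

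The ligand-binding chain of the interferon-γ receptor, Ifngr1, lay lower in every cKO mouse, while its partner Ifngr2 and the type I chain Ifnar2 lay higher, in the same libraries and without passing the test over all genes. For Ifngr1 the level was 527, 472, 411 and 528 CPM in control replicates 1 to 4 and 261, 366, 356 and 392 CPM in cKO replicates 5 to 8. Every cKO mouse was below every control mouse, with means of 485 ± 55.7 and 344 ± 56.9 CPM (SD, n = 4 mice each). Ifngr2 stood at 129.97, 125, 83.2 and 98.3 CPM in control and 145, 145, 138 and 147 CPM in cKO mice. All cKO mice were above all control mice, and they lay closer together (144 ± 3.57 CPM, against 109 ± 22.2 CPM in control mice).

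Ifnar2 measured 116, 120.5, 124 and 101 CPM in control and 153, 125, 126 and 139 CPM in cKO mice. Its groups were separated narrowly, by less than 1 CPM between control replicate 3 and cKO replicate 6, and without the dendritic cell-like, lymphoid-like and stromal-like clusters the direction turned (log2 fold change -0.03). For each of these 3 genes the exact permutation p was 0.0286, the smallest that 4 against 4 mice allow. Ifnar1, the other type I chain, was 70.7, 75.2, 44.1 and 55.5 CPM in control and 68.3, 52.0, 60.7 and 57.7 CPM in cKO mice, with overlapping groups and means of 61.4 ± 14.3 and 59.7 ± 6.80 CPM.

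**Figure D1:**
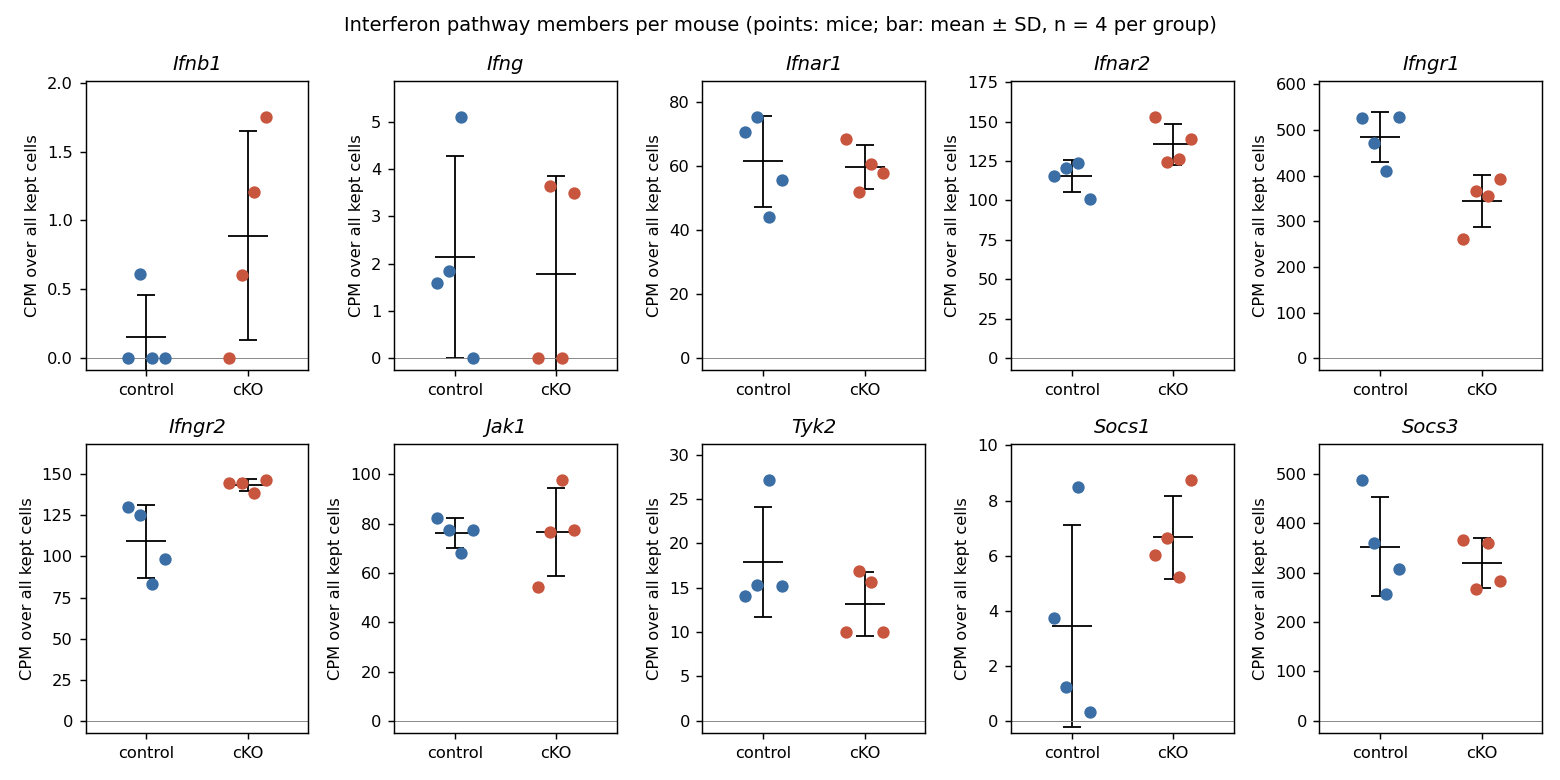
Level of each member over all kept cells of a mouse, in CPM on a linear axis with its own scale per gene, with 1 point per mouse and the group mean ± SD beside the points. Ifngr1 is lower in all 4 cKO mice and Ifngr2 and Ifnar2 are higher in all 4, while the groups of the other members overlap.

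Across all genes tested, all cKO mice were above all control mice for 4.00% and below for 8.34% of 11387 genes in CPM, against 2 and 1 of the 8 members tested. When library sizes were scaled by TMM these shares were 5.85% and 6.11%, and the same 3 members did not overlap. In the fit across all genes, however, no member passed the threshold, where 4.48% of genes did (341 higher and 169 lower). The log2 fold changes were 0.48 for Ifngr2 (SE 0.15, adjusted p = 0.103), -0.39 for Ifngr1 (SE 0.16, adjusted p = 0.178) and 0.33 for Ifnar2 (SE 0.14, adjusted p = 0.204) in the edgeR quasi-likelihood test, adjusted by Benjamini-Hochberg. Without control replicate 3 and cKO replicate 5, the mice under 100 cells, these values were 0.41, -0.33 and 0.34 (adjusted p = 0.144, 0.145 and 0.186, same test). Of the 8 members tested, 4 had an unadjusted p under 0.05 (these 3 and Socs1), as did 20.6% of all genes tested, DESeq2 called 0, and Ifnb1 and Ifng were below the filter on low counts.

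Since Ifngr2 lay higher and Ifngr1 lower in every cKO mouse, their ratio had to separate the mice and is no further result. It is given for its size, as the UMIs of Ifngr2 per UMI of Ifngr1. This ratio was 0.246, 0.265, 0.202 and 0.186 in control and 0.554, 0.395, 0.388 and 0.374 in cKO mice, with no overlap. It was highest in cKO replicate 5, the library with the most marked doublets. The ratio of Ifnar2 to Ifnar1 was 1.60 to 2.81 in control and 2.08 to 2.40 in cKO mice, and the groups overlapped.

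In summed cells, fewer cells of a type and less RNA per cell cannot be told apart. Macrophage-like cells numbered 358 in control and 50 in cKO mice, dendritic cell-like cells 421 and 96, and monocyte-like cells 131 and 463, so the makeup of the libraries differed. When every mouse was given the same cluster shares, Ifngr1 was 505 ± 20.7 CPM in control and 348 ± 45.5 CPM in cKO mice (log2 ratio -0.54, exact permutation p = 0.0286). The difference in Ifngr2 shrank to a log2 ratio of 0.26 (113 ± 34.8 against 135 ± 7.39 CPM, exact permutation p = 0.257) and that in Ifnar2 to 0.08 (exact permutation p = 0.514). Every cluster of every mouse was weighted, however few its cells. Control replicate 3 had 2 monocyte-like and 2 lymphoid-like cells, and cKO mice had 8 to 15 macrophage-like cells each. The share of all genes that separated at equal cluster shares was not computed. Within these limits, Ifngr1 was the receptor chain whose separation remained at equal cluster shares. With the shares of 12 clusters in place of 9, an alternative chosen after seeing the data, its log2 ratio was -0.42 (490.5 ± 3.74 against 366 ± 57.2 CPM, exact permutation p = 0.0286), with the 1 cluster that some mice lacked left out.

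Levels of the receptor chains differed between clusters. In means over control and cKO sums, Ifngr1 was highest in the Ccr2/Dusp6/Ly86 cells (583 ± 200.5 CPM, SD over 6 sums of at least 20 cells of a mouse). Monocyte-like (486 ± 112 CPM) and lymphoid-like cells (466.4 ± 124 CPM) followed. By group, the Ccr2/Dusp6/Ly86 cells were highest among control sums alone (766 ± 14.0 CPM). Among cKO sums they were at 401 ± 17.8 CPM, below lymphoid-like (432 ± 145 CPM) and monocyte-like cells (405 ± 45.5 CPM). Over both groups, Ifngr1 was lowest in the Cebpb/Jund/Ier5 (271 ± 102 CPM) and Ccl8/Cela1/Pf4 cells (226 ± 98.8 CPM). The dendritic cell-like (426 ± 67.5 CPM), macrophage-like (388 ± 82.7 CPM, 3 control sums) and Ccl24/Arg1/Saa3 cells (378 ± 108 CPM) lay between. Every cluster thus held Ifngr1, and these means over sums lay within a range of less than 3-fold.

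Its partner Ifngr2 was at 154 to 171 CPM in the Ccr2/Dusp6/Ly86, monocyte-like, macrophage-like and Ccl24/Arg1/Saa3 cells, and at 93.9 ± 20.9 CPM in dendritic cell-like cells. The lymphoid-like cells stood apart, at 35.0, 39.4, 0, 22.8, 33.4 and 49.0 CPM in the 6 mice with 20 such cells (control replicates 1, 2 and 4 and cKO replicates 6, 7 and 8), where a count of 0 allows up to 21.8 CPM. In these 6 mice the dendritic cell-like level was higher by 1.56 on the log2 scale (SD 0.90, 6 of 6 mice), with an exact two-sided sign-flip p of 0.03125, the smallest that 6 mice allow, and an adjusted p of 0.542 over the 52 neighbouring pairs tested. Only 16 of the 179 lymphoid-like cells (8.94%) had an Ifngr2 UMI. With each cell thinned to 1000 UMIs, which left out 178 shallower cells (99 control, 79 cKO), the share was 1.69% in lymphoid-like cells, 2.41% in stromal-like cells and 7.91 to 16.1% in the other clusters.

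Ifnar2 was highest in the Ccr2/Dusp6/Ly86 cells (184 ± 32.1 CPM) and lowest in dendritic cell-like cells (61.4 ± 11.9 CPM). All 6 mice with both clusters showed this order, with a mean difference of 1.50 on the log2 scale (SD 0.42). Ifnar1 was highest in macrophage-like cells (94.2 ± 20.7 CPM) and was nearly undetected in the Ccl8/Cela1/Pf4 cells, with 3 UMIs in 258 cells. At the shallow depth of that cluster, the 4 sums without a UMI allow levels of up to 34.2 to 77.6 CPM, so single sums could not separate the level from that of several other clusters. Pooled over mice, the level was 8.33 CPM, against 32.9 to 101 CPM in the other clusters. At 1000 UMIs per cell, 1.18% of its 170 cells of that depth had a UMI, against 2.41 to 11.1% in the other clusters.

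**Figure D2:**
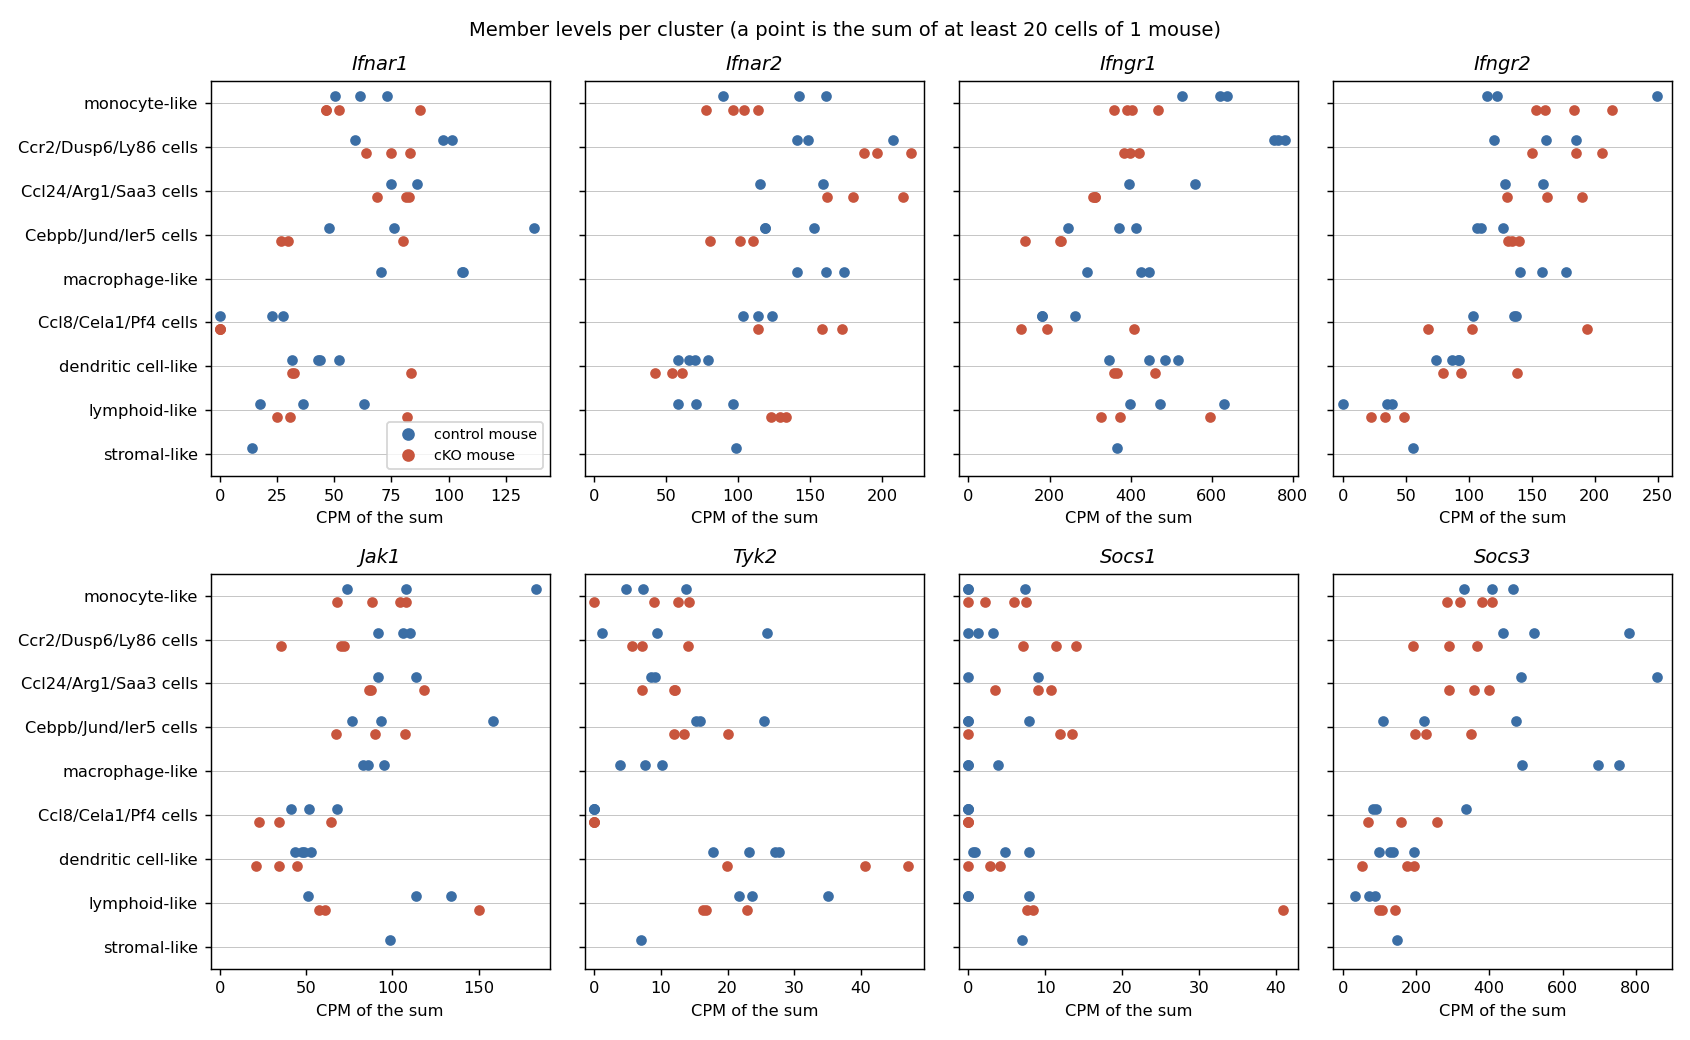
Level in CPM (linear axis, a scale per panel) of the 8 members other than the ligands, 1 panel per member, in each cluster (rows), where a point is the sum of at least 20 cells of 1 mouse, colored by group. Ifngr2 is lowest in the lymphoid-like row (0 to 49.0 CPM), the mean of Tyk2 is highest and that of Ifnar2 lowest in the dendritic cell-like row, and control and cKO points of Ifngr1 lie apart in the Ccr2/Dusp6/Ly86 row.

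A UMI of both chains of the interferon-γ receptor was found in 1142 of 3213 cells (35.5%). The share was 50.7% in the Ccr2/Dusp6/Ly86 and 47.2% in dendritic cell-like cells, against 6.15% in lymphoid-like and 4.26% in Ccl8/Cela1/Pf4 cells. At 1000 UMIs per cell the shares fell to 6.44% in the Ccr2/Dusp6/Ly86 cells, 2.77% in dendritic cell-like, 0.565% in lymphoid-like and 1.76% in Ccl8/Cela1/Pf4 cells. All of these shares fell with thinning, and the lymphoid-like share then rested on few cells. Both type I chains were found in 433 cells (13.5%), from 25.2% of macrophage-like to 0.388% of Ccl8/Cela1/Pf4 cells, and in 0.890% of all cells after thinning. By mouse, the interferon-γ receptor pair was found in 30.4 to 42.0% of control and 31.5 to 42.2% of cKO cells, so the groups overlapped although Ifngr1 was lower.

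Jak1, which serves both receptors, overlapped between the groups over all cells. It was 82.4, 77.4, 67.9 and 77.4 CPM in control and 54.3, 76.8, 97.7 and 77.4 CPM in cKO mice, and cKO replicates 5 and 7 marked the lowest and highest values of all 8 mice. The log2 fold change was 0.13 (95% interval -0.26 to 0.52, adjusted p = 0.729, edgeR quasi-likelihood test, Benjamini-Hochberg). At equal cluster shares it was lower in cKO mice, at 63.2 ± 10.8 against 85.2 ± 10.4 CPM (log2 ratio -0.43, exact permutation p = 0.0286, the smallest possible), which turns the direction, with no share over all genes computed to set beside it. Among clusters it was highest in monocyte-like (105 ± 38.2 CPM) and lowest in dendritic cell-like cells (41.7 ± 10.8 CPM), in 6 of 6 mice.

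Tyk2, the kinase bound to IFNAR1, was sparse, with 259 UMIs in 231 cells. It measured 14.1, 15.3, 27.2 and 15.1 CPM in control and 10.0, 16.9, 15.7 and 10.1 CPM in cKO mice, where the value of 27.2 CPM came from 16 UMIs in control replicate 3. The groups overlapped (log2 fold change -0.16, 95% interval -0.77 to 0.44). Its order over clusters was unlike that of Jak1: dendritic cell-like cells were highest (29.1 ± 10.9 CPM, in 7 sums) and lymphoid-like cells next (22.7 ± 6.79 CPM). Macrophage-like cells were at 7.23 ± 3.13 CPM, and no Tyk2 UMI was found in the Ccl8/Cela1/Pf4 cells, where the floor was 34.2 to 77.6 CPM per sum. Pooled over mice, the count of 0 in these cells allows up to 8.33 CPM. That lies below the pooled level of every other cluster but the macrophage-like (8.19 CPM) and stromal-like cells (2.35 CPM).

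Socs1, the inhibitor with the ISRE matches shown above, had 71 UMIs in 65 cells. It was 3.72, 1.22, 8.49 and 0.337 CPM in control and 6.03, 6.65, 5.23 and 8.75 CPM in cKO mice, from 1 to 20 UMIs per mouse. All cKO mice were above control replicates 1, 2 and 4, but control replicate 3, at 5 UMIs, lay among them. The fitted log2 fold change was 1.60 (SE 0.59, adjusted p = 0.153, edgeR quasi-likelihood test, Benjamini-Hochberg) and had a wide 95% interval of 0.31 to 2.89.

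Socs3, a feedback gene of the interleukin-6 and interleukin-10 families as well, was abundant, with 6242 UMIs in 1717 cells. It was 488, 360, 256 and 307 CPM in control and 366, 268, 360 and 284 CPM in cKO mice, so the groups overlapped and control replicate 1 alone was above all cKO mice. The log2 fold change over all cells was -0.05 (95% interval -0.48 to 0.37), and -0.36 at equal cluster shares (exact permutation p = 0.0857). Its level ranged widely between clusters, from 647 ± 140 CPM in macrophage-like cells (3 control mice) to 90.0 ± 35.9 CPM in lymphoid-like cells. In the 3 mice with both clusters the difference was 3.19 on the log2 scale (SD 0.86, 3 of 3 mice).

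Of the 52 neighbouring pairs in the orders of the 8 members other than the ligands, 0 passed an adjusted p of 0.05 in the exact sign-flip tests, and 2 had an unadjusted p under 0.05. These were the Ifngr2 pair given above and Socs3, higher in the Cebpb/Jund/Ier5 than in the Ccl8/Cela1/Pf4 cells by 0.73 on the log2 scale (6 of 6 mice). No pair had more than 6 mice, whose smallest possible p is 0.03125, and other pairs had fewer mice. With these floors no pair could pass at the adjusted level over 52 pairs. These tests could therefore not decide whether neighbours differed.

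Within clusters, cKO and control sums could be compared in 7 clusters, since macrophage-like and stromal-like cells had no cKO mouse with 20 cells. Of 56 tests of a member in a cluster, 1 passed the threshold. No member passed in the monocyte-like, Ccl24/Arg1/Saa3, dendritic cell-like, lymphoid-like, Ccl8/Cela1/Pf4 and Cebpb/Jund/Ier5 cells, where 0.740%, 0.511%, 0.431%, 0.176%, 0.106% and 0.0264% of all genes were called. The call was Ifngr1 in the Ccr2/Dusp6/Ly86 cells, where 1.10% of 11358 genes were called and 0.326% were called lower. Control replicates 1, 2 and 4 were at 781, 763 and 753 CPM and cKO replicates 6, 7 and 8 at 398, 419 and 384 CPM. The gap between the groups was far wider than either group, with means of 766 ± 14.0 and 401 ± 17.8 CPM (SD, n = 3). The log2 fold change was -1.02 (SE 0.23, adjusted p = 0.00804, edgeR quasi-likelihood test, Benjamini-Hochberg).

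With 12 clusters, this cluster was split in 2, and the groups lay mostly in different parts. The part led by Ccr2, Ms4a8a and Prtn3 held 272 of the 313 control and 40 of the 143 cKO cells, and the part led by Ifit3, Ifit3b and Iigp1 held 41 control and 103 cKO cells. In the Ifit3 part Ifngr1 was 217 to 335 CPM in the 4 control and 151 to 369 CPM in the 4 cKO mice, so the groups overlapped, and both lay well below the control level of the whole cluster. In the Ccr2/Ms4a8a/Prtn3 part it was 794 to 859 CPM in control and 320.5 to 750.2 CPM in cKO mice, with no overlap, but from 4 to 16 cells and 8 to 56 UMIs per cKO mouse. Too few cKO mice had 20 cells of the latter for a test, so how much of the difference lay within a part and how much in their shares was not tested.

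The call was lost without control replicate 1 (log2 fold change -0.98, adjusted p = 0.0715) or cKO replicate 8 (-1.04, adjusted p = 0.0693), the largest sums of their groups, while the direction held in all 17 alternatives that could be computed (-0.84 to -1.13). It was also lost when all genes entered the clustering (-0.84, adjusted p = 0.0946). Beside it, other measures of these sums moved. The summed level of 15 macrophage markers, all with a UMI, was 15063 to 18995 CPM in control and 20125 to 24672 CPM in cKO sums. That of 11 dendritic cell markers was 153 to 224 and 64.0 to 98.4 CPM, with Zbtb46 at 0, and that of 7 NK markers 11.8 to 18.1 and 0 to 11.4 CPM, with Ncr1 and Gzma at 0. The stress gene Hspa1a was 3773 to 5772 CPM in control and 2126 to 2481 CPM in cKO sums, and median depth was 5003 to 5509 and 5938 to 6421 UMIs per cell. The part of these measures in the difference was not tested.

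In the same cells, Socs3 was 781, 438 and 522 CPM in control and 192, 291 and 367 CPM in cKO sums. All cKO sums were below all control sums, but the test did not pass (log2 fold change -1.10, SE 0.31, adjusted p = 0.0671, edgeR quasi-likelihood test, Benjamini-Hochberg). It did pass when each cluster was fitted alone (adjusted p = 0.00154), and with limma-voom and the mouse as a random term (0.0309). It also passed with no filter on low counts (0.00174) and without control replicate 2 (0.0238) or 4 (0.0100). In the rest of the 17 alternatives it did not pass. Among these, adjusted p was 0.127 with DESeq2, 0.231 without doublet calls, 0.425 with 7 clusters and 0.458 with all genes used for clustering. Without control replicate 1 it was 0.508, and over all 17 alternatives the log2 fold change was -1.44 to -0.59. Jak1 there was 91.7, 110.4 and 106 CPM against 70.3, 35.5 and 71.9 CPM, again with no overlap (log2 fold change -0.74, adjusted p = 0.389). Socs1 went the other way, from 1, 1 and 0 UMIs in control to 3, 1 and 6 UMIs in cKO sums, or 1.48 ± 1.64 and 10.8 ± 3.50 CPM (adjusted p = 0.269). In these cells 7.76% of all genes had all cKO sums below and 7.05% above the control sums, against 3 and 1 of the 8 members.

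Ifngr1 was lower in every cKO sum than in every control sum in 4 of the 7 clusters. Besides the Ccr2/Dusp6/Ly86 cells, these were monocyte-like cells (595 ± 60.0 against 405 ± 45.5 CPM), where 4.90% of genes separated this way, and Cebpb/Jund/Ier5 cells (343 ± 87.8 against 198 ± 50.4 CPM), where 4.28% did. The last were Ccl24/Arg1/Saa3 cells (478 ± 116 against 311 ± 2.73 CPM), where 12.6% did, with only 2 control and 3 cKO sums. None of these 3 passed the test over all genes, with adjusted p of 0.641, 0.838 and 0.630. The monocyte-like groups also differed in makeup, since a part led by Dmkn, Slpi and Arg2 in the 12-cluster split held 217 of the 463 cKO and 7 of the 131 control cells, and their log2 fold change of -0.39 was -0.18 in the rest with 12 clusters and -0.16 with all genes used for clustering. In dendritic cell-like, lymphoid-like and Ccl8/Cela1/Pf4 cells the groups overlapped, with log2 fold changes of -0.29, -0.14 and 0.18. A test of whether the cKO effect differed between clusters called 0 members, where 0.0352% of genes were called, with unadjusted p of 0.0677 for Ifngr1, 0.0207 for Socs3 and 0.0185 for Ifnar2.

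**Figure D3:**
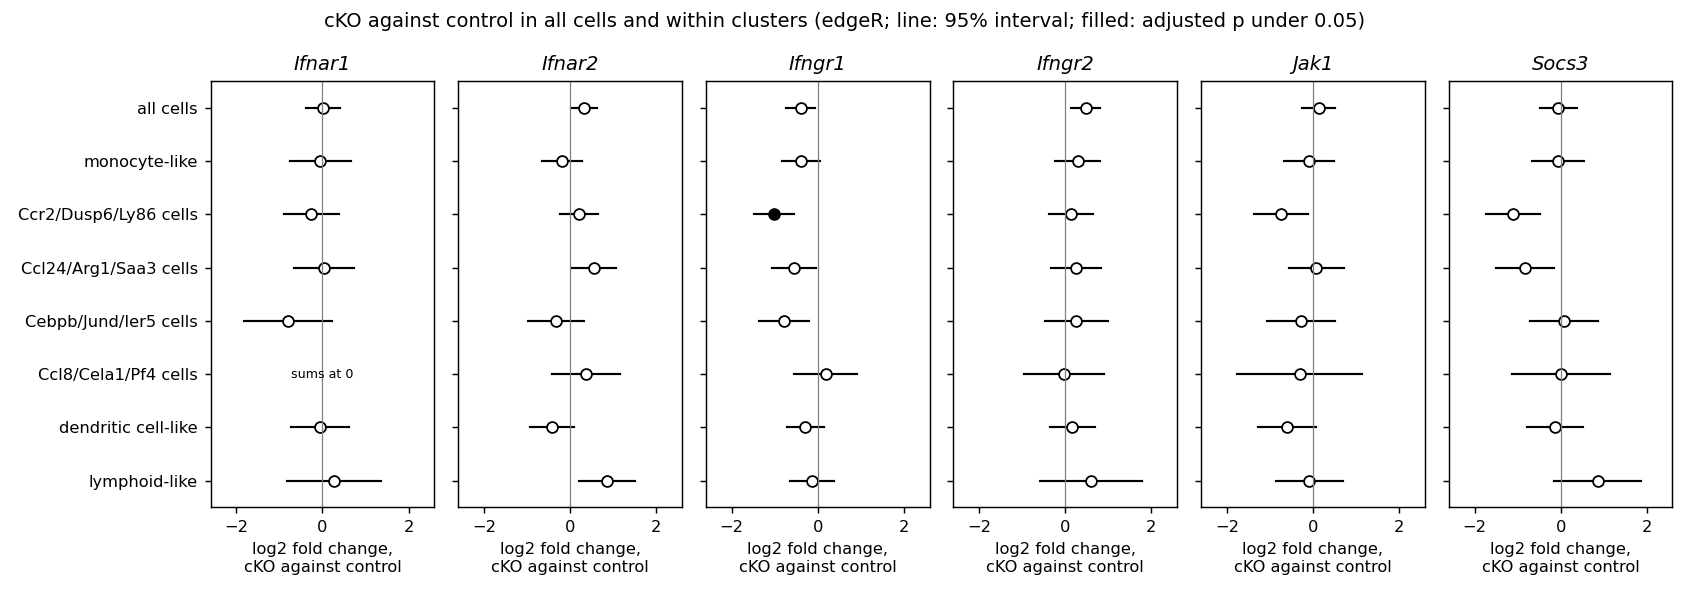
Log2 fold change of 6 members (columns), cKO against control, with its 95% interval from edgeR, over all cells and within each cluster that could be tested. Open points did not pass an adjusted p of 0.05. The Ifngr1 estimate in the Ccr2/Dusp6/Ly86 cells is the 1 filled point, at -1.02, and 7 of the 8 Ifngr1 estimates lie below 0.

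Other members separated in further clusters without passing the test. Ccl24/Arg1/Saa3 cells had only 2 control and 3 cKO sums. There Ifnar2 was above (137 ± 30.9 against 185 ± 26.6 CPM, where 9.43% of genes were) and Socs3 below (673 ± 263 against 350.2 ± 54.7 CPM, where 12.6% were). In Cebpb/Jund/Ier5 cells Ifngr2 was above (115 ± 10.8 against 135 ± 4.58 CPM, where 3.70% of genes were) and Ifnar2 below (130.1 ± 19.6 against 97.3 ± 15.1 CPM). Ifnar2 thus lay on opposite sides in these clusters. Among the lymphoid-like cells, which held nearly all Ifng transcripts, Ifnar2 was 96.4, 70.9 and 58.1 CPM in control and 129, 134 and 123 CPM in cKO sums, with no overlap, from 8 to 17 UMIs per sum. Socs3 was 64.4 ± 26.6 against 116 ± 23.0 CPM, also with no overlap. Neither passed the test over all genes (log2 fold changes 0.85 and 0.86, adjusted p = 0.612 and 0.805 in the edgeR quasi-likelihood test, adjusted by Benjamini-Hochberg), and in this cluster 4.04% of genes had all cKO sums above the control sums.

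Across the 47 sums of a mouse and cluster, the genes whose levels were most like those of a member were described by Pearson's r of log2(CPM + 10) over 4715 genes. For Ifngr2 these were Ctsh (a lysosomal protease, r = 0.877), Pirb (an inhibitory receptor of myeloid cells, r = 0.860) and Spi1 (the myeloid transcription factor PU.1, r = 0.848). For Socs3 they were Hcar2 (r = 0.789), Tnfrsf1a (r = 0.775) and Fyb (r = 0.752), and for Ifnar2 Fyb (r = 0.748), Apoe (r = 0.718) and Pla2g7 (r = 0.716). Ifngr1 was most like Nop53 (r = 0.751), Hspa1a (r = 0.733) and Eif3h (r = 0.718), and Ifnar1 most like Safb2 (r = 0.791), Ankrd11 (r = 0.757) and Jmjd1c (r = 0.751). Jak1 had weaker matches, Adam10 (r = 0.669) and the immediate early genes Fos (r = 0.648) and Junb (r = 0.640). Sums of a mouse share its library, and sums differ in depth.

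Genes downstream of the receptors changed where the receptors and kinases did not pass the test. Over all cells, 17 of 19 type I interferon response genes tested were higher in cKO mice and 0 lower, with a median log2 fold change of 2.17 against -0.03 over all genes and 0.07 over the 8 members. Among them were Ifi44 (4.34, adjusted p = 0.000119), Oas3 (3.08, adjusted p = 7.14e-05), an enzyme that senses double-stranded RNA, and the transcription factor Irf7 (2.97, adjusted p = 0.000244). Mx1 (1.03, adjusted p = 0.0719) and Ifit2 (1.52, adjusted p = 0.0787) did not pass. Here 2.99% of all genes were called higher and 1.48% lower by edgeR quasi-likelihood test, Benjamini-Hochberg.

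Factors that carry the type I signal to the nucleus were also higher. Stat2 rose from 25.7 ± 5.66 to 41.6 ± 2.58 CPM (log2 fold change 0.85, adjusted p = 0.0270) and Irf9 from 57.2 ± 4.51 to 85.2 ± 14.0 CPM (0.67, adjusted p = 0.0377). The groups of each did not overlap. Jak2, the partner kinase of IFNGR2, was at 0.22 and Jak3 at -0.31 on the log2 scale, and neither passed the test.

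Among 15 other feedback and attenuation genes, Usp18, which blocks signaling at IFNAR2, was higher (1.83, adjusted p = 0.0104, 36.8 ± 20.3 against 109 ± 28.5 CPM), and 0 were lower. The phosphatase gene Ptpn1 was at 0.62 (adjusted p = 0.171). Of 6 tested cytokine genes that can induce Socs3, Osm (1.27, adjusted p = 0.0218) and Csf3 (4.61, adjusted p = 0.0388) rose, although Csf3 had mice at 0 in both groups, and Il10 (1.43, adjusted p = 0.0699) and Il6 (2.03, adjusted p = 0.184) did not pass. Socs3 itself was at -0.05.

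For 11 tested chains of other receptors whose complexes signal through JAK1, 0 passed in either direction, with a median of 0.53. The largest estimate was that of Il7r (0.78, adjusted p = 0.474), and the lowest adjusted p were those of Il10rb (0.62, adjusted p = 0.0577), the neighbour of Ifnar2 on chromosome 16, Il2rg (0.64, adjusted p = 0.0682) and Il6ra (0.66, adjusted p = 0.0897). All cKO mice were above all control mice for Il10rb, Il2rg and Il21r and below them for Il6st, the signaling chain of the interleukin-6 family.

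Of 16 interferon-γ response genes tested, a list that also holds the member Socs1, 7 rose and 1 fell, with a median of 1.03. Iigp1 of this list also led the Ifit3 part described above. Whether interferon-γ or a type I interferon raised these genes was not tested. The GTPase gene Iigp1 (2.11, adjusted p = 0.0058), Cd274, which encodes the checkpoint ligand PD-L1 (1.37, adjusted p = 0.0444), and Gbp4 (1.34, adjusted p = 0.0316) rose the most among those that passed. Ciita, the regulator of MHC class II genes, fell by 0.98 on the log2 scale (adjusted p = 0.0392), from 44.9 ± 6.54 to 22.7 ± 8.02 CPM. Irf1 (-0.01), Cxcl9 (-0.45) and Gbp2 (0.63) did not pass. Dendritic cell markers, which mark cells that express MHC class II, were 676 to 755 CPM in control and 135 to 301 CPM in cKO mice, and their part in the Ciita value was not tested.

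Genes upstream of the ligands gave 2 of 12 higher for Ifnb1 (Irf7, and the kinase gene Ikbke at 1.21, adjusted p = 0.0212) and 0 of 6 for Ifng, whose median was 0.60. Ly6c2 and the other monocyte markers summed to 579 to 1231 CPM in control and 3176 to 4680 CPM in cKO mice, and macrophage markers to 11908 to 23716 and 9995 to 16140 CPM, and their part in these list counts was not tested.

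**Figure D4:**
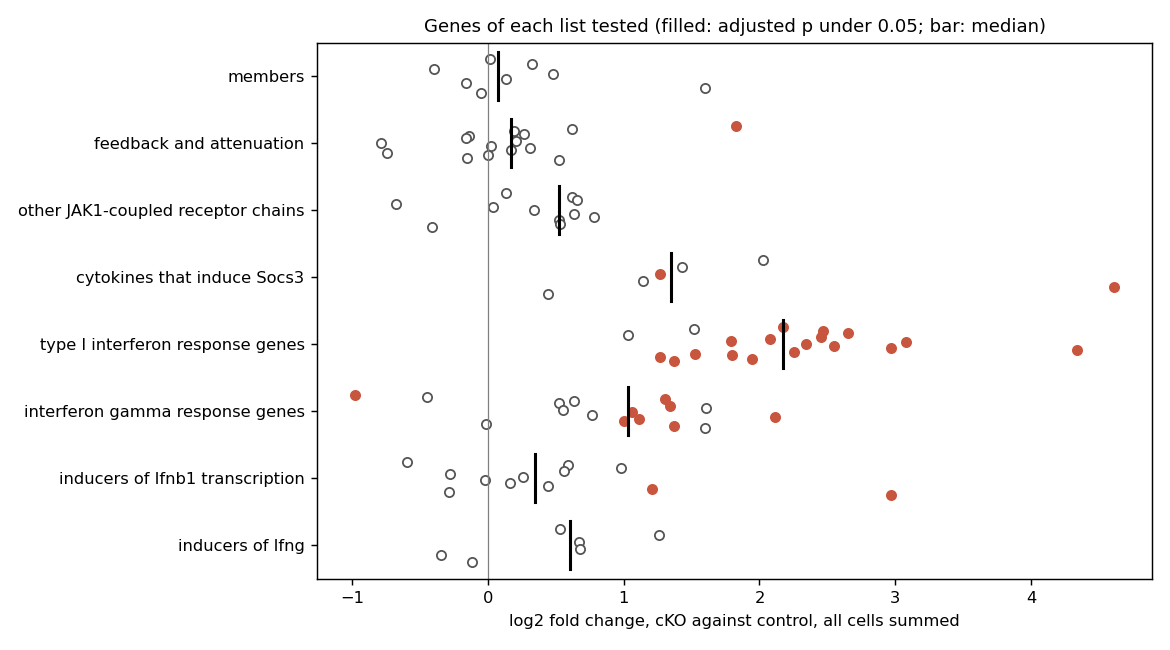
Log2 fold change of every tested gene of each list shown over all cells, cKO against control, with 1 point per gene, filled where it passed the threshold, and the list's median as a line. The type I response list lies furthest to the right, with a median of 2.17, while the 8 members lie around 0.07.

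By cluster, the type I response list had 15 of 19 genes higher in the Ccr2/Dusp6/Ly86 cells, where Ifngr1 was lower, 9 each in the Ccl24/Arg1/Saa3 and dendritic cell-like cells, 3 each in the monocyte-like and lymphoid-like cells, 2 in the Ccl8/Cela1/Pf4 and 1 in the Cebpb/Jund/Ier5 cells. All genes were called higher in 0.775%, 0.440%, 0.405%, 0.660%, 0.158%, 0.0880% and 0.0176% of tests in the same order of clusters. Of the interferon-γ response list, 4 genes rose in the Ccr2/Dusp6/Ly86 cells (Cxcl10, Iigp1, Tgtp1 and Tgtp2), 3 in the dendritic cell-like cells (Iigp1, Tgtp1 and Tgtp2), 1 in the lymphoid-like (Tgtp1), 1 in the monocyte-like (Cd274) and 0 in the other 3 clusters. In the Ccr2/Dusp6/Ly86 cells, most cKO cells were of the part led by Ifit3, Ifit3b and Iigp1 and most control cells were not, and the share of the type I response calls that this makeup accounts for was not tested.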

How the data were processed

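Single-cell RNA sequencing (10x 3′ kit, version 2) measured CD11b+ CCR2+ or CD64+ colonic lamina propria cells of 4 control and 4 cKO mice, 1 well each, all run on 1 cartridge in 1 day. The authors aligned reads with Cell Ranger (STAR 2.5.3a, R 3.5.0 in the submitters' processing notes) to mm10 with the EYFP sequence added, and deposited raw UMI counts per gene and cell, aggregated with no down-sampling. All barcode columns were joined to mice through the labels. Gene positions are those of GENCODE vM21.

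Cells were kept from 2.8 log10 UMIs and 2.6 log10 genes, with at most 5% mitochondrial UMIs and 0 hemoglobin UMIs. Depth was 589135 to 3762314 UMIs per control and 497531 to 2486236 UMIs per cKO mouse. Doublets were marked per mouse with Scrublet (scanpy 1.11.5; 15 control and 58 cKO cells) and kept. Size factors and denoised components came from scran 1.30.0, and 11765 genes (average normalized count of at least 0.005, with 105 listed genes left out) gave 9 components and 9 Ward clusters.

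Counts were summed by mouse (and by cluster within a mouse where it had 20 cells) and tested with edgeR 4.0.16 (TMM, glmQLFit, glmQLFTest, R 4.3.3) on genes with over 1 CPM in 3 sums and a UMI in 20 cells, with Benjamini-Hochberg adjustment over all genes tested and a false discovery rate of 0.05. Clusters were fitted in 1 model. Alternatives used DESeq2 1.42.0, limma-voom (limma 3.58.1) and the other settings given with the sensitivity of the results. The test across genes was tested on simulated counts. Single values were compared with two-sided exact permutation tests over mice (scipy 1.17.1), and neighbouring clusters with exact sign flips of log2(CPM + 10). Standardised levels weight each cluster by its share of the UMIs of all kept cells, with no minimum of cells per mouse and cluster. Wilson intervals are at 95%, floors are 3 UMIs per sum, and both cover counting error only.

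All 10 members are named; of each pathway list the 3 largest calls and up to 3 genes that did not pass are named, and further genes were named after their values were seen. The members and lists were chosen with earlier results of these data known. T cell markers had a row for 3 of 6 genes. p-values measure the spread between mice of 1 experiment.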

Additional observations from a re-analysis of the deposited data

Results flagged for a closer look

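In 38 groups of 4 to 10 values examined, 4 held a value far from the others by Dixon's ratio, where chance gives about 1 in 20. Ifnb1 over all cells was at 0.612 CPM in control replicate 2 and at 0 in the other control mice. Tyk2 over all cells was at 27.2 CPM in control replicate 3, above the other control mice. Ifnar1 in monocyte-like cells reached 87.5 CPM in 1 cKO mouse. Ifng in monocyte-like cells was at 1.49 CPM, a lone UMI, in 1 cKO mouse and at 0 in the other cKO mice.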

How the results depend on the processing

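Over all cells, 0 members were called in the main test, with DESeq2 and in the other refits, and 2 (Ifngr1 and Jak1) had an exact p under 0.05 once levels were standardised to equal shares of 9 or of 12 clusters (the latter chosen after seeing the data). The share of all genes with such a p at equal cluster shares was not computed, so these 2 have no background to be read against. Within clusters, 1 call became 2 with DESeq2, limma-voom, no low-count filter or each cluster fitted alone, and 0 with 12 clusters (where the Ccr2/Dusp6/Ly86 match could not be tested) or with all genes used for clustering. Leaving out a mouse gave 0 to 2 calls, 0 without control replicate 1 or cKO replicate 8 and 2 without control replicate 2 or 4. With DESeq2, Ifngr1 in the Cebpb/Jund/Ier5 cells was called (-0.85, adjusted p = 0.0482), and with 7 clusters it was called in the 1171-cell cluster that joined the Cebpb/Jund/Ier5, Ccl24/Arg1/Saa3 and Ccr2/Dusp6/Ly86 cells, the last of which carry the call with 9 clusters (-0.93, adjusted p = 0.00751).

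Small values changed sign. Ifnar1 over all cells was -0.091 with library totals in place of TMM (chosen after seeing the data; this shifts the median of all genes from -0.03 to -0.13), -0.000671 with the likelihood ratio test, -0.11 without the mice under 100 cells, -0.34 without the dendritic cell-like, lymphoid-like and stromal-like clusters and -0.011 and -0.059 at equal shares of 9 and 12 clusters, and -0.074 to 0.114 with each mouse left out. Without those clusters Ifnar2 was -0.032 and Jak1 -0.11, and Jak1 was -0.43 and -0.44 at equal shares of 9 and 12 clusters and -0.028 to 0.25 with a mouse left out. Tyk2 was 0.060 without the mice under 100 cells. Socs3 was -0.16 to 0.16 with a mouse left out. Ifngr1 in Ccl8/Cela1/Pf4 cells was -0.52 with all genes used for clustering and -0.17 to 0.51 with a mouse left out, and in lymphoid-like cells -0.40 to 0.053. The difference in the share of cells with Ifng was -0.320 to 0.0720 percentage points, positive without control replicate 3.

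Genes called over all cells were 1038 with the likelihood ratio test, 787 with no filter, 332 without the 3 clusters and 155 to 738 with a mouse left out, against 510. In the Ccr2/Dusp6/Ly86 cells they were 254 with the cluster fitted alone, 49 with all genes used for clustering and 64 to 147 with a mouse left out, against 125. The cause of these shifts was not tested. Of 317 values of single genes, 281 kept direction and side of the threshold. No paired analysis was possible because control and cKO mice share no replicate numbers. Ligands, Tyk2 and Socs1 are limited by depth, and macrophage-like cells by the few cKO cells.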

Other observations

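Of 2734 barcodes removed by the cell filters, 1 held an Ifnb1 UMI (1758 UMIs in that barcode), and none held an Ifng UMI. The highest Ifng count, 6 UMIs, occurred in 2 lymphoid-like cells. That of cKO replicate 8 had 2550 UMIs in all, with 9 T cell and 12 NK marker UMIs, and that of control replicate 1 had 1514 UMIs, with 4 T cell and 2 NK marker UMIs. The macrophage-like cell with Ifnb1, from control replicate 2, had 2 Ifnb1 UMIs of 8381 UMIs and 387 macrophage marker UMIs.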
